A study of Mus musculus with 2 samples.

Results

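The platelet-derived growth factor (PDGF) family is described here in the early rib repair callus, as the 4 ligand genes *Pdgfa*, *Pdgfb*, *Pdgfc* and *Pdgfd*, the receptor genes *Pdgfra* and *Pdgfrb*, and the receptor-like gene *Pdgfrl*. These 7 members were chosen by name from the 31054 features of the count tables, and none of them was used to sort cells into classes. All 7 were found in both libraries. Callus was taken at 4 days post injury (dpi) from mice with a large-scale rib resection and profiled by 10x single-cell RNA sequencing. The control library came from *Sox9*:CreER;*R26*:tdT;*Smo* flox/+ animals and the *Smo* cKO library from animals with *Smo* flox/flox and the same *Sox9*:CreER and *R26*:tdT alleles. Both genotypes carried the CreER driver and the tdTomato reporter and both received tamoxifen before surgery, so that recombination was limited to cells with *Sox9*:CreER activity at that time and the control had also 1 floxed copy of *Smo*. The cells of 3 animals were pooled for each genotype, which leaves 1 library per genotype, no spread between animals and no test of genotype. Differences between the libraries are therefore given with 95% intervals that cover counting error only, and they compare these 2 libraries rather than the genotypes. Where 2 values are paired, the control comes first. The age and sex of the animals are not used here.

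PDGF ligands act as dimers on receptor tyrosine kinases at the surface of neighboring cells. PDGF-A, PDGF-B and PDGF-C chains bind PDGFRα, the classical receptor of mesenchymal cells, while PDGF-B and PDGF-D bind PDGFRβ, which is best known from pericytes and vascular smooth muscle. PDGF-B made by endothelium recruits pericytes to growing vessels, and PDGF-C and PDGF-D are secreted with a CUB domain that proteases remove before the ligand can bind.

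The genes lie on GRCm38 as follows. *Pdgfa* is at chr5:138976014-138997370 on the minus strand, *Pdgfb* at chr15:79995874-80014977 on the minus strand, *Pdgfc* at chr3:81036416-81214040 and *Pdgfd* at chr9:6168584-6378850 on the plus strand. *Pdgfra* is at chr5:75152292-75198215, *Pdgfrb* at chr18:61045150-61085061 and *Pdgfrl* at chr8:40926212-40990785, all on the plus strand. All 7 are annotated as protein coding.

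After filtering, 10057 control and 9507 *Smo* cKO cells remained, with 8367 and 9092 unique molecular identifiers (UMIs) per cell at the median. Markers placed 6368 and 4962 of them in a connective-like lineage, 2587 and 2835 in a hematopoietic-like lineage, 224 and 458 in a muscle-like lineage, 64 and 65 in an endothelial-like class and 52 and 59 in a mural-like class, which stands for pericytes and smooth muscle. The leading genes of the mural-like class included *Rgs5* and *Higd1b*, and those of the endothelial-like class *Cdh5*, *Cldn5* and *Pecam1*. *Smo* was 19.1 counts per 1000000 UMIs (CPM) in control and 12.5 CPM in *Smo* cKO connective cells, a log2 ratio of −0.61 (−0.72 to −0.49). In the muscle lineage it was 17.3 and 6.54 CPM (log2 −1.41, −2.10 to −0.72). tdTomato UMIs were found in 48 and 105 connective cells, so the Sox9+ lineage could not be separated at useful depth. The libraries shared 613 barcodes, of which 599 pairs passed the filters (6.05% and 6.35% of the kept cells). In these pairs the smaller copy had a median of 641 UMIs and the larger 35732, and 416 pairs lay in the same lineage. Values without these barcodes are given where they move a result. Cells that passed the markers of more than 1 lineage were set aside as mixed and made up 4.42% and 6.71% of the cells. The mural markers were an exception. For cells that passed them, passing the connective level as well did not count as a second lineage. Cells that passed the mural and the endothelial or muscle markers were placed by the stronger score.

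*Pdgfa*, the chain that binds PDGFRα alone, was found in every large lineage, with at least 1 UMI in 48.9% of control and 55.6% of *Smo* cKO cells. Its highest level was in mural-like cells, at 434 CPM for the control (264 UMIs) and 420 CPM for the *Smo* cKO library (352 UMIs). Endothelial-like cells had 223 and 232 CPM. The *Tnc* fibroblast-like class, connective cells that express *Tnc*, *Timp1* and *Inhba*, had 208 and 221 CPM, within the counting intervals of the endothelial level. Mural-like cells were thus 2.09-fold above *Tnc* fibroblasts in control and 1.90-fold in *Smo* cKO callus. *Fmod* skeletogenic-like cells, which express *Fmod*, *Aspn* and *Postn*, had 97.9 and 145 CPM. *Sfrp4* fibroblast-like cells, with *Sfrp4*, *Eln* and *Col14a1*, had 76.9 and 108 CPM, so *Tnc* fibroblasts were 2.70-fold above them in control and 2.05-fold in *Smo* cKO callus. Within the muscle lineage, satellite-like cells and myoblasts had 128 and 160 CPM against 43.2 and 65.7 CPM in differentiating muscle, a ratio of 2.96 and 2.43. Neutrophil-like cells were at the low end, with 9 and 7 UMIs.

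**Figure D1:**
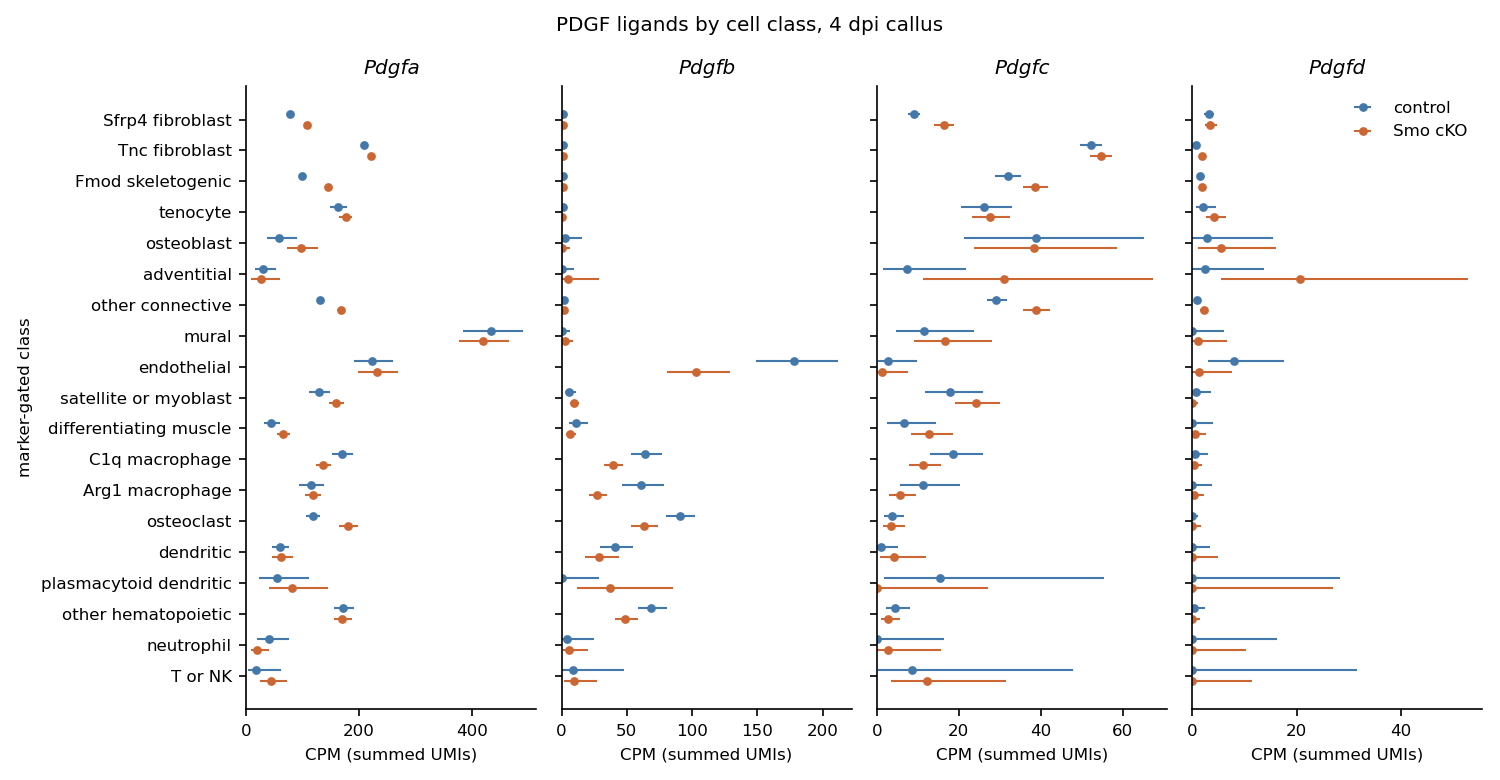
CPM from summed UMIs (x axis) of the 4 ligand genes in 19 marker-gated classes (y axis), with 1 point per library and bars for the exact Poisson 95% interval, each panel on its own scale. *Pdgfa* is highest in mural cells at 434 and 420 CPM, *Pdgfb* in endothelial cells at 179 and 103 CPM, and *Pdgfc* is 52.3 and 54.6 CPM in *Tnc* fibroblasts.

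Connective cells held most of its UMIs: 78.8% in the control, where they were 63.3% of the cells, and 70.3% in the *Smo* cKO library, where they were 52.2%. *Tnc* fibroblasts alone held 41.3% and 33.2%. Cells with a UMI depend on depth, so each cell was also thinned to 1000 UMIs. After thinning, *Pdgfa* was found in 29.4% and 20.3% of mural-like cells, 30.6% and 23.4% of endothelial-like cells, and 17.6% and 18.5% of *Tnc* fibroblasts, against 0 of 69 and 0 of 107 neutrophil-like cells, which allows shares of up to 4.35% and 2.80%. The mural intervals, 17.5% to 43.8% and 11.0% to 32.8%, overlapped. At 3000 UMIs per cell the shares were 61.7% and 62.5% of mural-like and 52.0% and 48.9% of endothelial-like cells. Without thinning the mural shares were 80.8% and 86.4%, at median depths of 10540 and 12217 UMIs.

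*Pdgfa* was higher in the *Smo* cKO library in the connective lineage as a whole, from 143 CPM (11692 UMIs) to 173 CPM (13149 UMIs), a log2 ratio of 0.28 (0.24 to 0.31). The *Fmod* skeletogenic class had the larger ratio of 0.57 (0.47 to 0.67) and the *Sfrp4* fibroblasts 0.49 (0.37 to 0.60). The *Tnc* fibroblasts, which held more of the UMIs than any other connective class, had 0.09 (0.04 to 0.14). Over 10 alternative ways of processing, the *Fmod* ratio ran from 0.18 to 0.60 and the *Sfrp4* ratio from 0.37 to 0.67. The size of the *Fmod* difference thus depended on the processing. The median of all genes in *Sfrp4* fibroblasts was itself 0.12 higher on the log2 scale, and relative to it the ratio there was 0.37 for *Pdgfa*, 0.73 for *Pdgfc*, −0.23 for *Pdgfra*, 0.46 for *Pdgfrb* and 0.10 for *Pdgfrl*. Osteoclast-like cells had 117 and 180 CPM (353 and 411 UMIs, log2 0.62, 0.41 to 0.83), and the muscle lineage 96.5 and 124 CPM (0.36, 0.14 to 0.58). Macrophage-like cells together had 151 and 128 CPM (429 and 691 UMIs, −0.23, −0.41 to −0.05). The lower value lay in the *C1q* macrophages, at 169 and 136 CPM (−0.31, −0.53 to −0.10), whereas *Arg1* macrophages had 114 and 118 CPM (0.05, −0.27 to 0.38). *Arg1* macrophages, the class with the lower level, were 323 of 1065 macrophages in control and 660 of 1549 in *Smo* cKO callus. The median log2 ratio of all genes in macrophages together was −0.07, inside their *Pdgfa* interval. The intervals held 0 in mural cells (−0.05, −0.28 to 0.19) and in endothelial cells (0.05, −0.26 to 0.37).

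The class gates draw on different unsupervised clusters in the libraries, so the members were also summed within the 10 connective Louvain clusters that had at least 100 cells in each library. *Sfrp4* fibroblasts lay most often in cluster 6 in the control (42.2%) and in cluster 4 in the *Smo* cKO library (55.7%), *Tnc* fibroblasts in clusters 0 (62.6%) and 2 (41.7%), and *Fmod* skeletogenic cells in clusters 5 (41.5%) and 2 (27.1%). Of the 10 clusters, cluster 12 had *Pf4* and *Ccl8*, leading genes of the macrophage classes, among its own leading genes. Cluster 13 had a median of only 625 UMIs per cell. *Pdgfa* was higher in the *Smo* cKO library in 9 of the 10 clusters, with intervals above 0 in 8. The ratios ran from −0.69 in cluster 13, which had 40 and 15 UMIs and an interval of −1.66 to 0.19, to 0.69 in the tenocyte-like cluster 10, from 78.0 to 126 CPM. Tenocyte-like cells by gate had 163 and 176 CPM of *Pdgfa* (466 and 869 UMIs), with intervals that overlapped. Both the level and the size of the difference there thus depended on how the cells were chosen. In cluster 0, the main *Tnc* cluster of the control, *Pdgfa* was 212 and 224 CPM.

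*Pdgfb*, the chain that binds both receptors and is known for pericyte recruitment, was highest in endothelial cells, followed by part of the hematopoietic classes. Endothelial-like cells had 179 CPM in control (132 UMIs in 64 cells) and 103 CPM in *Smo* cKO callus (76 UMIs in 65 cells). Connective cells had 1.40 and 1.09 CPM, which is 127-fold and 94.2-fold lower. Among hematopoietic cells the osteoclast-like class, with markers of cells that resorb bone, was highest at 90.8 and 62.8 CPM. *C1q* macrophage-like cells had 64.3 and 39.6 CPM and *Arg1* macrophage-like cells 61.0 and 27.2 CPM. Dendritic-like cells followed with 40.5 and 28.7 CPM. Macrophages together were 45.0-fold and 31.3-fold above connective cells. Among these classes the order endothelial, osteoclast, macrophage, dendritic held by level in both libraries when macrophages were pooled. In the *Smo* cKO library pooled macrophages (29.4 to 39.5 CPM) lay within the interval of dendritic cells (17.8 to 43.9 CPM), and *Arg1* macrophages alone were below them. In the control the *C1q* and *Arg1* macrophages did not differ beyond their counting error. Hematopoietic cells placed in no subclass had 68.9 and 48.9 CPM, between osteoclasts and pooled macrophages. They held 14.9% and 15.5% of all *Pdgfb* UMIs. Neutrophil-like cells had only 1 and 2 UMIs, and T or NK-like cells 1 and 3.

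Few cells carried much of this ligand. Endothelial cells were 0.636% and 0.684% of the cells and held 12.6% and 9.39% of all *Pdgfb* UMIs, and osteoclasts were 3.07% and 1.84% of the cells and held 26.1% and 17.7%. Hematopoietic cells together held 62.7% and 59.7%, and connective cells 11.0% and 10.3%. At 1000 UMIs per cell, *Pdgfb* was found in 21.0% and 9.38% of endothelial cells (56.3% and 33.8% unthinned, median 8926.5 and 7500 UMIs), in 7.77% and 4.00% of osteoclasts, and in 5.79% and 3.69% of macrophages. Connective cells gave the background, with 0.149% and 0.126% after thinning, and 1.52% and 1.43% before it at medians of 10874 and 13638 UMIs.

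**Figure D2:**
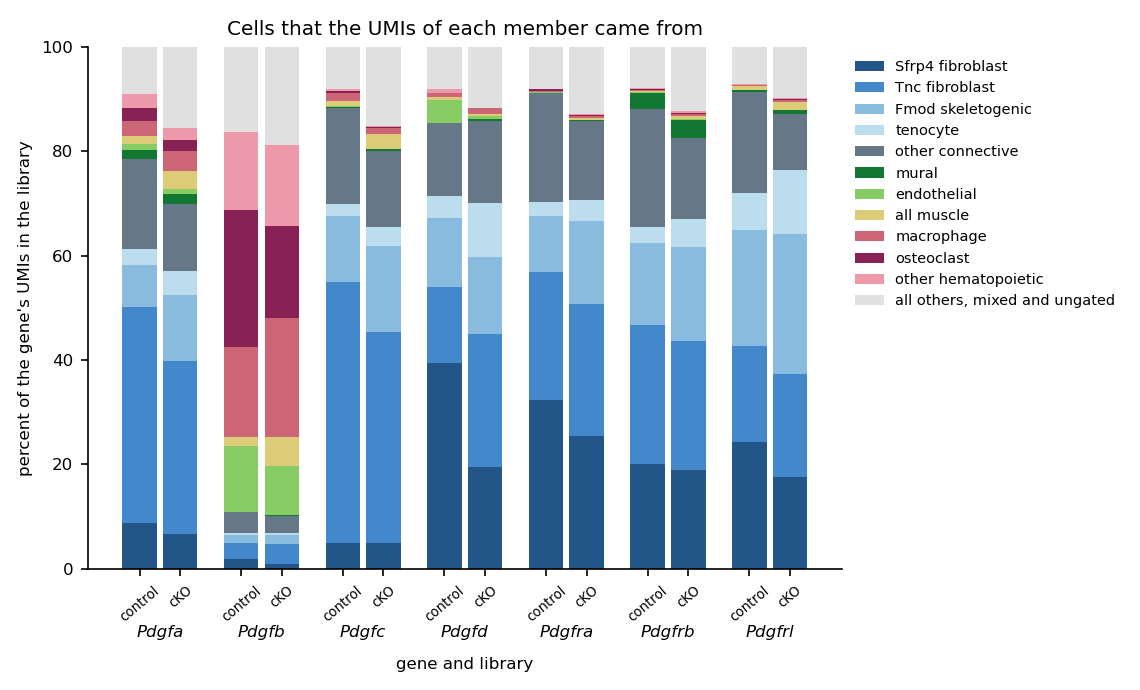
Percent of the UMIs of each member (y axis) by the class of the cell that held them, with 1 bar per gene and library (x axis). Connective classes (blue and gray-blue) hold 70.3% to 92.4% of the UMIs of every member but *Pdgfb*, of which they hold 11.0% in control and 10.3% in *Smo* cKO callus.

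*Pdgfb* was lower in the *Smo* cKO library in the endothelial class and in the osteoclast, macrophage and dendritic classes. The log2 ratio was −0.79 (−1.22 to −0.38) in endothelial cells, −0.53 (−0.84 to −0.24) in osteoclasts, −0.70 (−1.08 to −0.32) in *C1q* macrophages and −1.16 (−1.70 to −0.63) in *Arg1* macrophages, where 59 and 64 UMIs were counted. In dendritic cells, with 44 and 21 UMIs, it was −0.50 and its interval held 0 (−1.32 to 0.28). Macrophages together went from 63.2 to 34.2 CPM, −0.89 (−1.19 to −0.58). Within Louvain clusters the values were likewise lower, at 67.1 and 39.7 CPM in cluster 1, named for *Arg1* macrophages, 59.7 and 39.7 CPM in cluster 3, named for *C1q* macrophages, and 88.3 and 54.7 CPM in the osteoclast cluster 9. With cluster members in place of the gate, the *Arg1* macrophage ratio was −0.76, no longer past 2-fold. The endothelial cells split over 2 clusters, and cluster 25 held 62.5% and 52.3% of the gated class. *Pdgfb* was 203 and 87.4 CPM in cluster 25, with *Emcn*, *Plvap* and *Pecam1* among its leading genes. It was 70.6 and 66.3 CPM on 21 and 27 UMIs in cluster 28, with *Ccl21a*, *Lyve1* and *Flt4* among its leading genes. The endothelial class level mixes these 2 clusters. Without the barcodes shared by the libraries the endothelial levels were 166 and 76.4 CPM on 102 and 38 UMIs, and the ratio of −1.12 passed 2-fold.

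*Pdgfc*, a ligand with a CUB domain, followed the fibroblast classes. *Tnc* fibroblasts had 52.3 CPM (1541 UMIs) and 54.6 CPM (1539 UMIs), *Fmod* skeletogenic cells 31.9 and 38.5 CPM, and *Sfrp4* fibroblasts 9.08 and 16.3 CPM. *Tnc* fibroblasts were 5.76-fold above *Sfrp4* fibroblasts in control and 3.35-fold in *Smo* cKO callus. Osteoblast-like cells were at 38.9 and 38.4 CPM on only 14 and 21 UMIs, and their intervals held the levels of both the *Fmod* class and the *Tnc* fibroblasts. Connective cells held 88.9% and 80.8% of the UMIs, and *Tnc* fibroblasts alone 49.9% and 40.5%. At 1000 UMIs per cell 4.41% and 6.08% of *Tnc* fibroblasts had a *Pdgfc* UMI, 0.734% and 1.69% of *Sfrp4* fibroblasts, and 1.32% and 0.804% of macrophages.

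The low macrophage level of *Pdgfc* was above what connective RNA in these cells scales to. *C1q* macrophages had 18.6 CPM (12.9 to 25.9) in control and 11.2 CPM (7.76 to 15.7) in *Smo* cKO callus, while the connective marker list in those cells scales to 2.02 and 2.23 CPM. Satellite-like cells and myoblasts had 17.7 and 24.1 CPM against 2.86 and 3.60 CPM in proportion to that list.

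Between the libraries, *Pdgfc* was higher in the *Smo* cKO connective lineage, from 33.5 to 40.5 CPM (log2 0.27, 0.20 to 0.34). The ratio was 0.84 (0.53 to 1.16) in *Sfrp4* fibroblasts and 0.27 (0.09 to 0.46) in *Fmod* skeletogenic cells, and its interval held 0 in *Tnc* fibroblasts (0.06, −0.04 to 0.17). In macrophages it was lower, from 16.1 to 8.73 CPM on 46 and 47 UMIs (−0.89, −1.50 to −0.27). It was higher in 8 of the 10 connective clusters, with 5 intervals above 0 and none below.

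*Pdgfd*, the ligand of PDGFRβ, had few UMIs, 137 in control and 204 in *Smo* cKO callus over all kept cells. Connective cells held 86.9% and 89.2% of them. In the control the *Sfrp4* fibroblasts held 39.4%, at 3.16 CPM, and *Tnc* fibroblasts 14.6%, at 0.678 CPM. In the *Smo* cKO library these shares were 19.6%, at 3.47 CPM, and 25.5%, at 1.85 CPM. The connective level was 1.45 and 2.40 CPM (log2 0.72, 0.38 to 1.07), and in *Tnc* fibroblasts 20 and 52 UMIs gave a ratio of 1.44 (0.68 to 2.27). Connective cells placed in no subclass had 0.977 and 2.22 CPM on 19 and 32 UMIs. Over the 10 connective clusters *Pdgfd* was higher in 5 and lower in 4, with 2 intervals above 0, and cluster 13 had 0 and 1 UMIs and no ratio. The 2 intervals were those of the *Tnc* clusters 0 (16 and 19 UMIs, 1.16, 0.12 to 2.21) and 2 (5 and 60 UMIs, 1.43, 0.13 to 3.11). Endothelial cells had 6 and 1 UMIs. After thinning, 0.232% and 0.397% of connective cells had a UMI, so single cells could not be ranked by this gene. Cluster 23, with 2 control and 123 *Smo* cKO cells, was named for adventitial markers, but its leading genes were *Serpinb2* and *Dlk1*. It had 12.2 CPM of *Pdgfd* on 26 UMIs in its *Smo* cKO cells. With 1 library per genotype, a cluster found almost wholly in 1 library cannot be told apart from a feature of that library.

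*Pdgfra*, the receptor gene of mesenchymal cells, was a connective gene in both libraries. *Sfrp4* fibroblasts had 186 CPM (3184 UMIs) and 172 CPM (1989 UMIs), and adventitial-like cells 198 and 150 CPM on 80 and 29 UMIs, with intervals that held the *Sfrp4* level. *Tnc* fibroblasts had 81.9 and 70.3 CPM, *Fmod* skeletogenic cells 87.0 and 77.3 CPM and tenocyte-like cells 89.9 and 63.6 CPM. *Sfrp4* fibroblasts were thus 2.28-fold and 2.45-fold above *Tnc* fibroblasts, the class highest in *Pdgfc*. In both libraries *Pdgfra* fell from *Sfrp4* fibroblasts through *Fmod* skeletogenic cells to *Tnc* fibroblasts, the reverse of *Pdgfa* in these 3 classes. The *Fmod* and *Tnc* intervals of *Pdgfra* overlapped in each library. Connective cells placed in no subclass did not follow this reversal, with both genes above their *Fmod* level. They had 106 and 81.5 CPM of *Pdgfra* and 131 and 168 CPM of *Pdgfa*. In *Smo* cKO callus their *Pdgfra* interval overlapped that of the *Fmod* class. Mural-like cells had 26.3 and 19.1 CPM on 16 UMIs each, 7.09-fold and 9.03-fold below the *Sfrp4* fibroblasts.

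**Figure D3:**
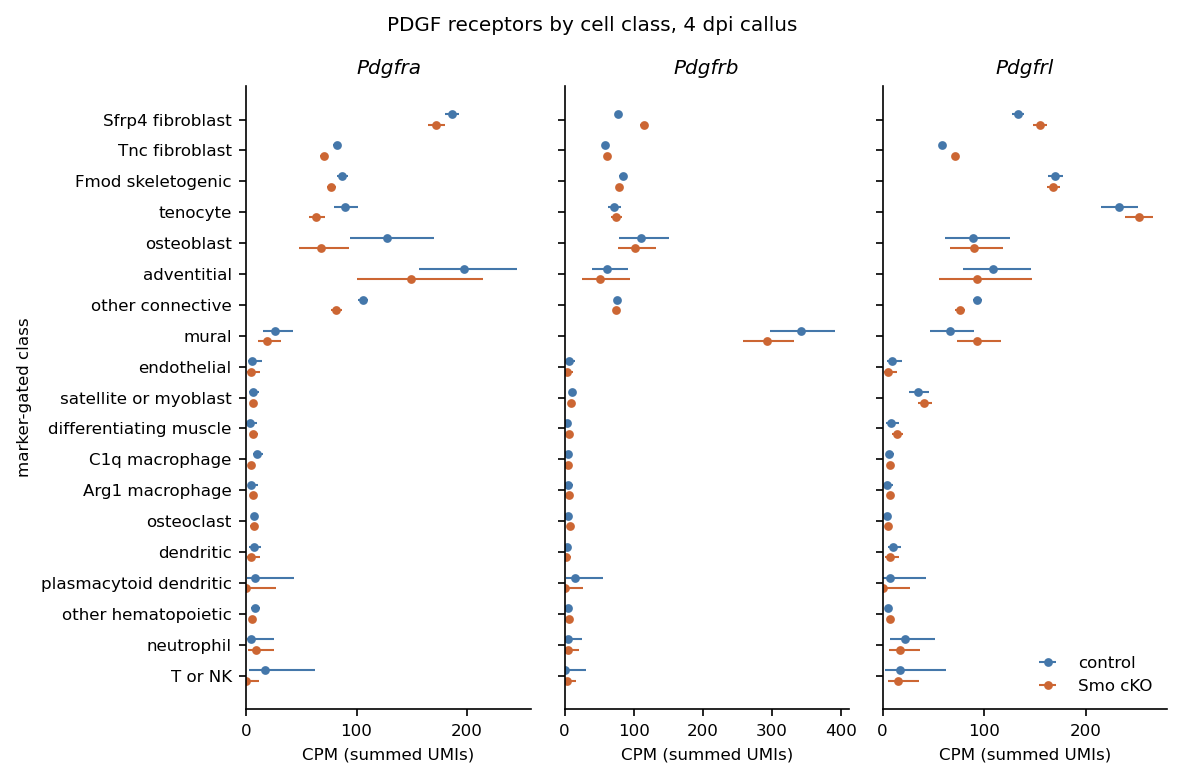
CPM from summed UMIs (x axis) of *Pdgfra*, *Pdgfrb* and *Pdgfrl* in 19 marker-gated classes (y axis), with 1 point per library and bars for the exact Poisson 95% interval. *Pdgfra* is highest in *Sfrp4* fibroblasts and adventitial cells, *Pdgfrb* in mural cells at 342 and 294 CPM, and *Pdgfrl* in tenocytes at 232 and 252 CPM.

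*Pdgfra* was found in 16.7% and 14.7% of *Sfrp4* fibroblasts and in 7.87% and 6.65% of *Tnc* fibroblasts after thinning (66.1% and 66.8% of *Sfrp4* fibroblasts before it). Macrophages, a class not known for this receptor, gave 0.711% and 0.402% after thinning. In *C1q* macrophages its control level of 9.56 CPM (5.67 to 15.1) lay around the 6.70 CPM that the connective marker list scales to in those cells. The same held for *Pdgfra*, *Pdgfrb* and *Pdgfrl* in the other hematopoietic classes and the endothelial class, with 3 exceptions at low counts. These were *Pdgfrl* in control neutrophils (22.2 CPM against 6.61) and, in *Smo* cKO callus, *Pdgfrb* in osteoclasts (7.46 against 4.04) and in erythroid cells (22.3 against 5.27).

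*Pdgfra* was lower in the *Smo* cKO library across the connective lineage, from 111 CPM (9101 UMIs) to 89.2 CPM (6770 UMIs), a log2 ratio of −0.32 (−0.36 to −0.27). Each named class had a ratio below 0, from −0.11 (−0.19 to −0.03) in *Sfrp4* fibroblasts through −0.17 (−0.29 to −0.05) in *Fmod* skeletogenic cells and −0.22 (−0.31 to −0.13) in *Tnc* fibroblasts to −0.50 (−0.74 to −0.26) in tenocytes. Osteoblast-like cells, at 128 and 67.6 CPM on 46 and 37 UMIs, had −0.92 (−1.59 to −0.26), and the interval of adventitial cells held 0. Of the 10 connective clusters 9 were lower, with intervals below 0 in 7. The exception was cluster 13, on 21 and 15 UMIs, at 0.24 (−0.82 to 1.26). In cluster 4, which held most *Sfrp4* fibroblasts of the *Smo* cKO library, *Pdgfra* was 219 and 172 CPM, and in cluster 0 it was 79.2 and 69.1 CPM. In these clusters *Pdgfa* and *Pdgfra* thus differed between the libraries in opposite directions, *Pdgfa* being 87.5 and 120 CPM in cluster 4.

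**Figure D4:**
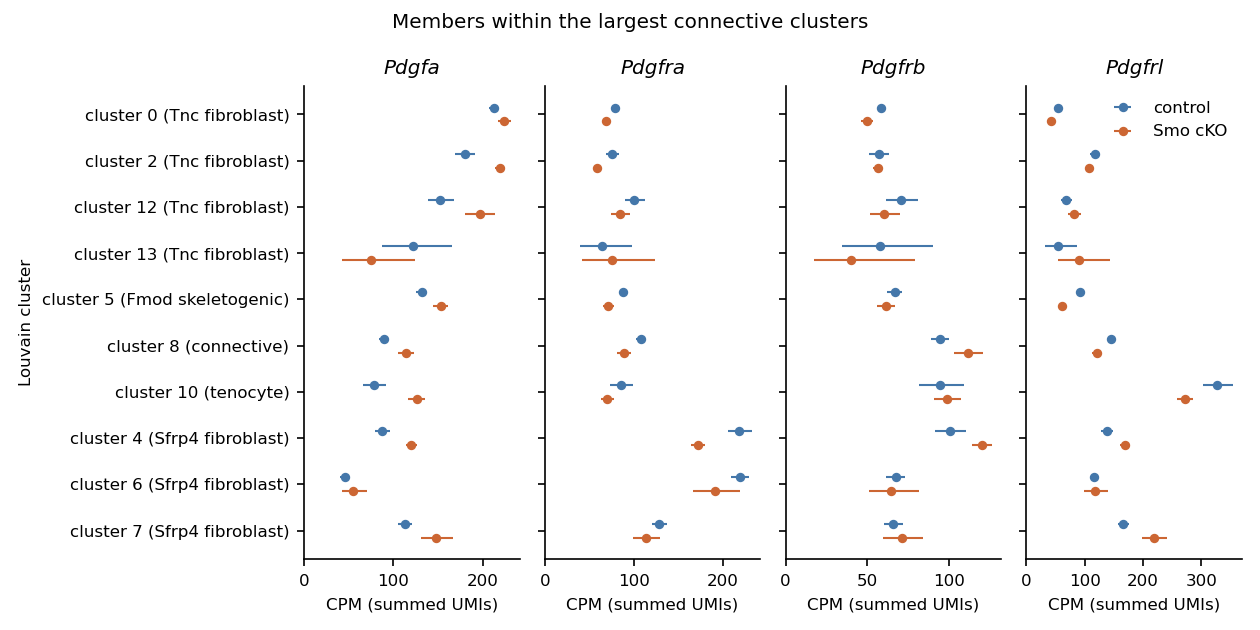
CPM (x axis) of *Pdgfa*, *Pdgfra*, *Pdgfrb* and *Pdgfrl* within the 10 connective Louvain clusters with at least 100 cells per library (y axis, with the class whose markers name each cluster), 1 point per library, bars for the exact Poisson 95% interval. *Pdgfa* is higher in the *Smo* cKO library in 9 clusters and *Pdgfra* lower in 9, while *Pdgfrl* is lower in 5 and higher in 5.

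*Pdgfrb*, the pericyte receptor gene, was highest in mural-like cells, at 342 CPM (208 UMIs in 52 cells) and 294 CPM (246 UMIs in 59 cells). This was 4.81-fold above the connective lineage in control and 3.83-fold in *Smo* cKO callus. Mural cells were 0.517% and 0.621% of the cells and held 3.18% and 3.53% of the *Pdgfrb* UMIs, whereas connective cells held 89.0% and 83.5%. The connective classes ran from 58.9 CPM in *Tnc* fibroblasts to 111 CPM in osteoblast-like cells in the control. *Sfrp4* fibroblasts were 1.31-fold above *Tnc* fibroblasts in control and 1.88-fold in *Smo* cKO callus. After thinning *Pdgfrb* was found in 39.2% and 32.2% of mural cells, 7.59% and 7.09% of connective cells, 0.711% and 0.603% of macrophages, and 0 of 62 and 0 of 64 endothelial cells, which allows up to 4.84% and 4.69%. The connective marker list was also part of the mural cells, whose median score was 108 UMIs per 10000 in control and 172 in *Smo* cKO callus. In proportion to that list *Pdgfrb* would stand at 41.5 and 52.3 CPM in mural cells, below the measured levels.

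The mural ratio of *Pdgfrb* was −0.22 with an interval that held 0 (−0.49 to 0.05). The connective lineage had 71.1 and 76.7 CPM (0.11, 0.06 to 0.16). The class furthest from 0 was the *Sfrp4* fibroblasts, at 77.1 and 115 CPM (1317 and 1323 UMIs, 0.57, 0.46 to 0.68), while *Tnc* fibroblasts had 58.9 and 61.0 CPM and *Fmod* skeletogenic cells 84.2 and 78.3 CPM (−0.10, −0.22 to 0.02). Within single clusters the *Sfrp4* difference was smaller. It was 101 and 120 CPM in cluster 4 (0.26, 0.10 to 0.41), 67.5 and 64.8 CPM in cluster 6 (−0.06, −0.43 to 0.30) and 66.1 and 71.3 CPM in cluster 7 (0.11, −0.17 to 0.39). Over the 10 connective clusters *Pdgfrb* was higher in 4 and lower in 6, with 2 intervals above 0 and 1 below.

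*Pdgfrl* encodes a secreted protein that resembles the receptors' ligand-binding part and has no kinase. It was highest in tenocyte-like cells, at 232 CPM (664 UMIs) and 252 CPM (1244 UMIs), followed by *Fmod* skeletogenic cells at 170 and 168 CPM and *Sfrp4* fibroblasts at 133 and 155 CPM. *Tnc* fibroblasts were lowest of these, at 58.4 and 71.4 CPM. Outside the connective lineage, satellite-like cells and myoblasts had 34.8 and 41.0 CPM, above the 8.96 and 10.4 CPM that the connective list scales to there. Mural cells had 65.8 and 93.1 CPM, and the interval of their ratio held 0 (0.50, −0.07 to 1.09). These mural levels lay within counting error of the 61.4 and 80.1 CPM that the connective list scales to in those cells. For *Pdgfra* the same scaling gave 64.9 and 60.8 CPM in mural cells, above the measured 26.3 and 19.1 CPM. The scaling thus did not hold for every member there, and the origin of mural *Pdgfrl* RNA was not tested. After thinning *Pdgfrl* was found in 20% and 21.7% of tenocytes and in 0.711% and 0.536% of macrophages.

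The connective lineage as a whole had 105 and 117 CPM of *Pdgfrl* (0.16, 0.11 to 0.20), but this pooled value did not describe its clusters. The gene was lower in the *Smo* cKO library in 5 of the 10, each with an interval below 0, and higher in the other 5, with 3 intervals above 0. Cluster 5, named for *Fmod* skeletogenic cells, went from 92.1 to 61.2 CPM (−0.59, −0.74 to −0.44) and the tenocyte cluster 10 from 327 to 272 CPM (−0.27, −0.40 to −0.13). Cluster 7, named for *Sfrp4* fibroblasts, went from 166 to 219 CPM (0.40, 0.24 to 0.56). In tenocytes by gate the ratio was 0.12 (−0.02 to 0.26), so its sign turned with the way the cells were chosen.

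**Figure D5:**
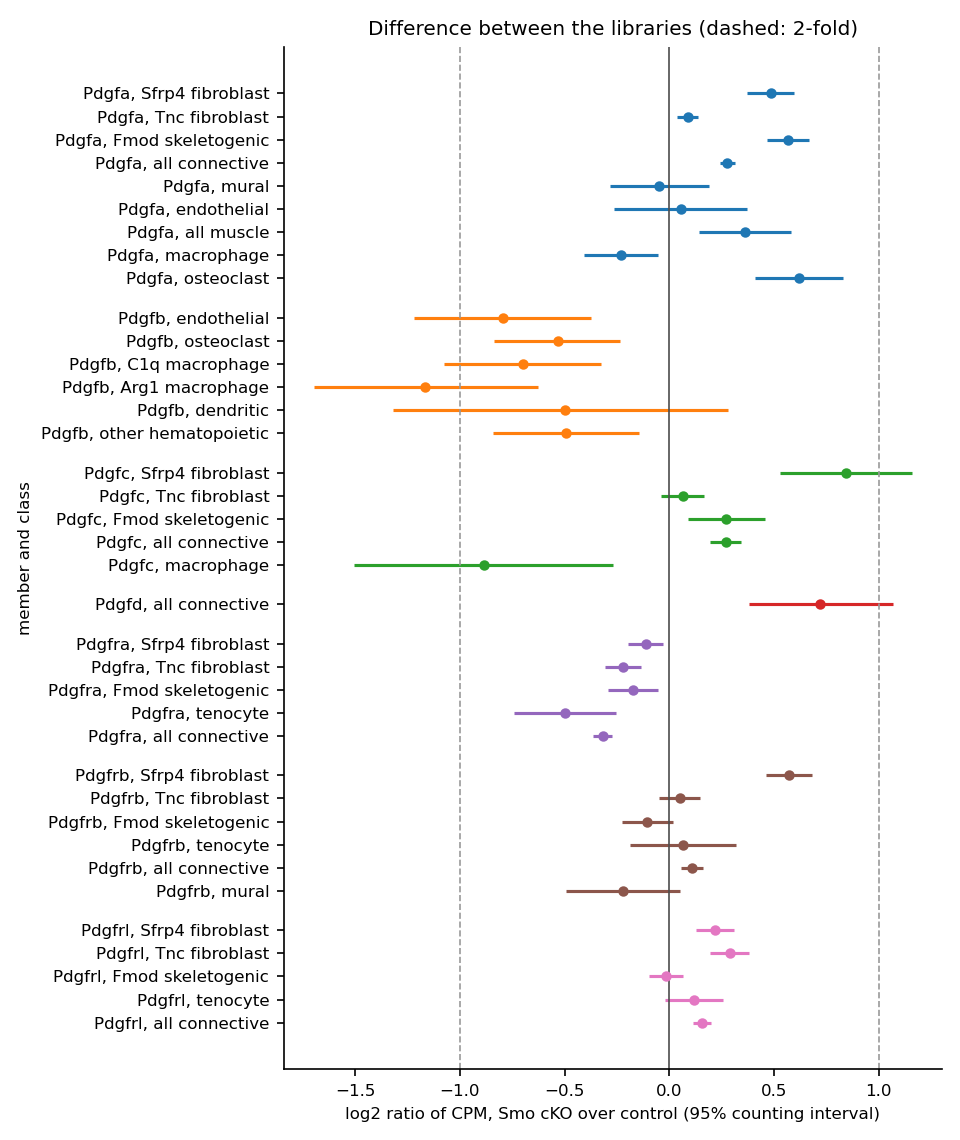
Log2 ratio of CPM, *Smo* cKO over control (x axis), for members and classes (y axis), with exact 95% intervals for counting error and dashed lines at 2-fold. *Pdgfb* is below 0 in every class shown and *Pdgfra* in every connective class shown, while *Pdgfa* is above 0 in connective classes and below it in macrophages together.

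Few of these differences reached 2-fold, the size used as a call in the absence of replicates, among genes with at least 50 UMIs over both libraries. In connective cells 0 of the 7 members were called, where 1.76% of 13634 genes were higher and 1.16% lower. In *Tnc* fibroblasts 1 of 7, *Pdgfd*, was called higher, against 1.75% of genes higher and 0.581% lower. Connective cells placed in no subclass were not part of these counts, and *Pdgfd* was past 2-fold higher there too. In *Sfrp4* fibroblasts 0 of 6 members were called, against 3.18% of genes higher and 1.34% lower, in *Fmod* skeletogenic cells 0 of 5, against 1.87% and 1.0%, and in tenocytes 0 of 5, against 1.73% and 0.464%. In *Arg1* macrophages 1 of 2 members tested, *Pdgfb*, was called lower, against 1.89% higher and 0.662% lower. For macrophages together the count was 0 of 4 with 1.52% of genes higher and 0.614% lower, for osteoclasts 0 of 2 with 1.35% and 0.331%, and for endothelial cells 0 of 2 with 2.1% and 0.917%. Mural cells had 0 of 3, with 3.09% and 0.935%, and the muscle lineage 0 of 5, with 1.94% and 0.57%. The median ratio of the 7 members in connective cells was 0.16, against 0.01 over all genes.

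Ligands and receptors were also read in the same cells, at 3000 UMIs per cell. Of connective cells with a *Pdgfra* UMI, 19.6% in control and 20.8% in *Smo* cKO callus had a *Pdgfrb* UMI, against 18.5% and 19.3% of the other connective cells. The intervals of these shares overlapped in each library, and 5.53% and 4.86% of connective cells had both. Connective cells with *Pdgfa* had *Pdgfra* in 25.1% and 22.6%, against 29.5% and 23.7% of the others. In mural cells *Pdgfa* and *Pdgfrb* were found together in 42.6% and 42.9%.

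*Pdgfra* and *Pdgfrl* were lower in cycling connective cells. *Pdgfra* stood at 84.9 against 122 CPM in the control and 75.7 against 96.0 CPM in the *Smo* cKO library. *Pdgfrl* stood at 79.9 against 116 CPM and 85.0 against 134 CPM, while *Pdgfrb* was 72.0 against 70.8 CPM and 74.5 against 77.7 CPM. Within the *Sfrp4* fibroblasts *Pdgfra* was 149 against 189 CPM in the control and 139 against 179 CPM in the *Smo* cKO library, and within the *Tnc* fibroblasts 77.7 against 85.1 CPM and 67.0 against 72.8 CPM. In *Fmod* skeletogenic cells the order of *Pdgfra* was not kept, with 83.6 against 88.5 CPM and 82.8 against 75.5 CPM, and there *Pdgfrl* was 140 against 182 CPM and 134 against 178 CPM. The *Cxcl12*-high connective cells, 449 in control and 128 in *Smo* cKO callus, had 160 and 126 CPM of *Pdgfra* with 58.8 and 114 CPM of *Pdgfa*. The connective cells with a tdTomato UMI had 146 and 183 CPM of *Pdgfa* and 105 and 72.1 CPM of *Pdgfra*. tdTomato itself stood at 0.586 and 1.41 CPM in connective cells and 0.825 and 1.01 CPM in hematopoietic cells, with intervals that overlapped in each library. A tdTomato UMI therefore did not single out the Sox9+ lineage.

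The patterns of the members over classes were compared with those of 5042 genes, by Pearson's r of log2(CPM + 1) over 38 points, which are 19 classes in 2 libraries and share those libraries. *Pdgfra* was most like *Lox* (0.94), *Col3a1* (0.93, a gate marker) and *Mfap2* (0.92). *Pdgfrb* was most like *Col6a2* (0.94), *Mrc2* (0.93) and *P3h3* (0.93), and *Pdgfrl* most like *Prrx2* (0.96), *Fam114a1* (0.94) and *Col6a2* (0.94). *Pdgfa* was most like *Eif4a1* (0.76), *Fblim1* (0.75) and *Vim* (0.74), and *Pdgfb* most like *N4bp1* (0.81), *Lcp2* (0.79) and *Zfand2a* (0.78). *Pdgfc* was most like *Rab34* (0.84), *Wls* (0.83) and *Matn2* (0.82), and *Pdgfd* most like *Nupr1* (0.83), *Dkk2* (0.83) and *Pcsk6* (0.83). Among the members the receptors went together (*Pdgfra* with *Pdgfrb* 0.82 and with *Pdgfrl* 0.87), and *Pdgfb* ran opposite to *Pdgfrl* (−0.81). The points share gates and depth as well as libraries, and most classes are either connective or hematopoietic.

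Beyond the members, 41 pathway genes were read, which are proteases that activate ligands, ligand-binding proteins, adaptors and effectors of the receptors, and attenuators of the signal. In connective cells 40 had enough UMIs, of which 1 was 2-fold higher and 0 lower, with a median ratio of −0.05. The gene was *A2m*, whose product binds PDGF in plasma, at 0.183 and 0.632 CPM on 15 and 48 UMIs (1.79, 0.93 to 2.73). *Dusp6*, a phosphatase that is induced by ERK signaling and acts on it, passed 2-fold in *Sfrp4* fibroblasts, from 6.50 to 14.9 CPM (1.20, 0.84 to 1.55), and in tenocytes, from 17.5 to 35.2 CPM (1.01, 0.55 to 1.49), as 1 of 38 and 1 of 36 genes tested. These shares are near those of all genes called higher there, 3.18% and 1.73%. In endothelial cells 1 of 25 passed, the adaptor *Shc1*, from 23.0 to 56.9 CPM on 17 and 42 UMIs (1.31, 0.46 to 2.21). In the muscle lineage 1 of 34 passed, the protease gene *Plat*, tissue plasminogen activator, which cleaves PDGF-C, from 13.2 to 28.8 CPM (1.12, 0.57 to 1.72). Of all genes, 1.76% were called higher in connective cells, 2.1% in endothelial cells and 1.94% in the muscle lineage. A count of 1 gene in lists of these sizes is therefore not read as a result about the pathway. In *Tnc* fibroblasts 0 of 39, in *Fmod* skeletogenic cells 0 of 39 and in mural cells 0 of 23 genes passed in either direction.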

How the data were processed

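Callus cells of 1 control and 1 *Smo* cKO library were measured by 10x single-cell RNA sequencing. Per the labels, the authors used Cell Ranger 3.0.2 and mm10, and deposited UMI counts of each gene in each called cell, with no normalization. Every column belonged to 1 of the 2 libraries. The control file held 10747 barcodes with 105367110 UMIs and the *Smo* cKO file 10512 with 112700220.

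Cells with at least 200 genes and under 10% mitochondrial UMIs were kept. The study's upper limit of 2000 genes was an alternative, since 58.0% and 59.4% of the kept cells exceed it. Cells were placed in 22 classes by UMIs of marker lists per 10000 UMIs (connective at least 100, hematopoietic 12, endothelial and mural 10, muscle 4, with the named subclasses from further lists). The members, marker and pathway lists were chosen with earlier results of these data known, and the gate levels were set after the list scores were seen. In all, 5.32% and 7.36% of kept cells lay within 1.5 times of the connective level. Class names stand for cells that resemble that type by its markers.

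UMIs were summed per class and library and divided by the summed UMIs of those cells (CPM). CPM are not corrected for gene length, so levels are compared between classes and not between genes. Levels have exact Poisson, ratios exact binomial-based and shares Clopper-Pearson 95% intervals. A count of 0 is given with the limit of 3 counts. With 1 library per genotype no p-value was computed, and a gene was called at 2-fold among those with at least 50 UMIs. The ratio code was tested on simulated data. Cells were thinned to 1000 UMIs (3000 for pairs of genes) without replacement. Cycling cells had at least 4 UMIs of proliferation genes per 10000, and *Cxcl12*-high cells a value over 2 of ln(1 + UMIs per 10000).

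Louvain clusters were made from 2000 variable genes without the members, 30 components, 20 neighbors and resolution 1.0, which gave 31 clusters. Scrublet's automatic threshold marked 0.0% and 0.021% of cells, so no doublet was removed beyond the mixed cells. Genes named are the members, *Smo*, tdTomato, the 3 genes most like each member among those at 50 CPM in a class of both libraries, and pathway genes past 2-fold in connective, endothelial, mural or muscle classes. *Cxcl12* was taken from the study's question, and the marker genes of each class or cluster were read from its leading genes. Python 3.11.15, numpy 2.4.6, scipy 1.17.1, pandas 2.3.3, scanpy 1.11.5 and igraph 0.11.9 were used, and coordinates are those of GENCODE on GRCm38. No sequences are shown.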

Additional observations from a re-analysis of the deposited data

Results flagged for a closer look

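The ratio of *Pdgfa* lay on opposite sides of 0 in different classes, with intervals that left 0 out. Its log2 ratio of *Smo* cKO over control was 0.62 in osteoclasts, 0.36 in the muscle lineage and 0.28 in connective cells, but −0.23 in macrophages together. Of these the *C1q* macrophages had −0.31 and the *Arg1* macrophages 0.05, with an interval that held 0. The median log2 ratio of all genes in macrophages together was −0.07, inside the interval of *Pdgfa* there. For *Pdgfc* the ratio was 0.27 in connective cells and −0.89 in macrophages. These differences between classes were not tested, since each genotype is 1 library.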

How the results depend on the processing

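No paired analysis was possible because each genotype is 1 library. Of the main member ratios, 87 alternative values kept their direction and moved by less than the counting interval, and 11 moved. Outside the main ratios, 236 alternative values stayed the same by this rule, 26 moved and 3 were reversed. The count of 3 does not cover every turn of sign. Ranges over the alternatives crossed 0 for *Pdgfa* in *Tnc* fibroblasts, endothelial and mural cells, and for *Pdgfra* in *Tnc* fibroblasts. They also crossed 0 for *Pdgfrb* in *Tnc* fibroblasts and *Fmod* skeletogenic cells, and for *Pdgfrl* in both of these classes and in tenocytes. The *Pdgfrb* ratio in *Fmod* skeletogenic cells ran from −0.22 to 0.10 over the alternatives. The limit of 200 to 2000 genes, which left 1556 and 791 connective cells, gave connective ratios of 0.64 for *Pdgfa*, 1.29 for *Pdgfc*, −0.39 for *Pdgfra*, 0.37 for *Pdgfrb* and 0.61 for *Pdgfrl*. It gave −0.37 for endothelial *Pdgfb*, on 4 and 4 UMIs. In *Tnc* fibroblasts the same limit turned the direction of *Pdgfa* (−0.036, 71 and 35 UMIs), *Pdgfra* (0.25, 40 and 24 UMIs) and *Pdgfrl* (−0.60, 36 and 12 UMIs). It also took past 2-fold *Pdgfc* in *Tnc* (1.43, 14 and 19 UMIs) and *Sfrp4* fibroblasts (1.48, 22 and 17 UMIs) and *Pdgfrb* in *Tnc* fibroblasts (1.26, 19 and 23 UMIs). Osteoclasts (85 and 16 cells) fell below 20 cells in 1 library and mural cells (19 and 8) in both, so neither gave a value. Taking the mean over cells gave connective ratios of 0.36 for *Pdgfa*, 0.46 for *Pdgfc* and 0.27 for *Pdgfrl*, and Louvain clusters in place of gates gave 0.037 for *Pdgfrb* and 0.10 for *Pdgfrl*. The cause of these shifts was not tested. With at least 20 UMIs per gene in place of 50, 378 genes were 2-fold higher and 290 lower in connective cells, against 240 and 158. The Spearman lists shared 1 of 3 genes with the Pearson lists for each member but *Pdgfrb*, which shared 0. Leaving out the highest 8% of Scrublet scores, leaving out the shared barcodes and raising the gates 1.5 times were chosen after seeing the data, and none turned the direction of a ratio named in connective cells as a whole. Low UMI counts limit *Pdgfd*, and *Pdgfb* in connective cells.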
